A study of Mus musculus with 8 samples.

Results

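The FOXO transcription factors Foxo1, Foxo3 and Foxo4, and 7 genes of stress defence often described as their targets (Sod2, Cat, Gadd45a, Txnip, Bcl6, Sesn1 and Sesn3), were followed across Nras genotypes in hematopoietic stem cells (HSCs). The members were taken by name from the non-control probes of each array, where Foxo3 is written with its older name Foxo3a. This gave 16 probes of 9 genes. Foxo4 carries the older name Mllt7 there and was found through the RefSeq identifier of its probe, which brought the set to 17 probes of 10 genes, out of 41174 probes and 27600 gene names.

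HSCs of mouse bone marrow, strain B6, were profiled on 8 single-colour (Cy3) Agilent expression arrays, 1 sample each. The control group was Nras+/+ (n = 2), and the mutants were NrasG12D/+ (n = 3) and NrasG12D/G12D (n = 3), which carry the mutation on 1 or on both endogenous alleles. NrasG12D is an activated form of the small GTPase Nras. The labels give no age, sex, inducing agent, Cre driver or sorting scheme, and they do not tell whether the replicates were separate animals, so any p-value reflects the spread among the samples at hand, which may be technical. In bulk RNA, fewer cells of a type and less RNA per cell cannot be told apart.

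FOXO factors are forkhead proteins that bind DNA and switch on genes of antioxidant defence, cell cycle arrest, DNA damage response and apoptosis. Growth factor signalling through PI3K leads AKT to phosphorylate them, which moves them out of the nucleus, while stress kinases and low growth factor signalling let them act. RAS proteins feed into PI3K as well as into the RAF-MEK-ERK cascade. In HSCs, loss of FOXO factors is known to raise reactive oxygen species and to take stem cells out of quiescence. FOXO activity is set largely by phosphorylation and location of the protein, neither of which an RNA array measures.

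The level of a probe was expressed as the log2 of its processed signal minus the 75th percentile of the array, so 0 is the level of a bright probe and a difference of 1 is a doubling. The scanner software also marks each spot as well above background or not. Between 26.0% and 42.4% of spots were well above background per array, the highest shares being those of NrasG12D/+ replicates 1 and 2 (41.0% and 42.4%). These 2 arrays shared a slide with both Nras+/+ arrays, and NrasG12D/+ replicate 3 shared the other slide with the 3 NrasG12D/G12D arrays. Of 14 HSC markers, 11 were above background on at least 1 array and 4 on all 8, while Procr, Tek and Gata2 were above background on none. The summed level of the 14, in units of the array's 75th percentile, was 47.0 on NrasG12D/G12D replicate 2 and 1.02 to 4.60 on the other arrays. Of 11 mature neutrophil markers, 8 were above background on at least 1 array. Their summed level stood at 236 on NrasG12D/+ replicate 1 and at 1.44 to 11.8 on the other arrays, with S100a8, Camp and Lcn2 above background on no array. The markers of monocytes, B cells, T and NK cells, erythroid cells, megakaryocytes and endothelium reached a summed level of 12 at most, and the part of other cells in the results was not tested. The Nras probe was above background on all 5 Nras+/+ and NrasG12D/+ arrays and on no NrasG12D/G12D array, at least 3.11-fold lower in NrasG12D/G12D than in Nras+/+ (log2 difference -1.79, SE 0.70, limma adjusted p = 0.722). A point mutation leaves the transcript in place, so this probe does not check the genotype.

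Most of the FOXO set lay near or below the detection limit. Of the 17 probes, 8 (47.1%) were above background on no array, against 43.3% of all probes, and 2 were above background on 1 array. Foxo4 and Gadd45a were above background on all 8 arrays, Sesn1 on 6, Sod2 and Bcl6 on 3, and Txnip on 2, each by the probe that was tested. Foxo1 and Cat were above background on no array, and Foxo3 and Sesn3 on 1 array each, by any probe. The 4 last genes have only upper bounds on most arrays and were not tested.

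**Figure D1:**
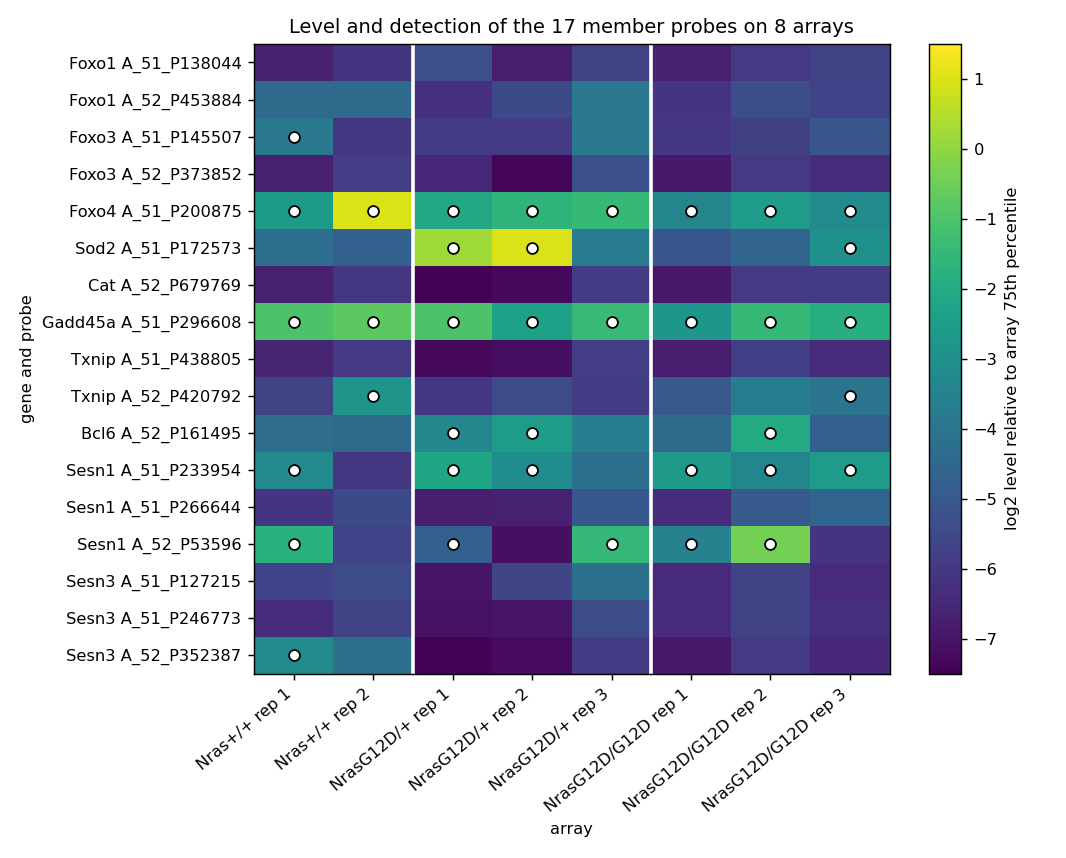
Log2 level (colour, relative to the array's 75th percentile) of the 17 probes of the set (rows, gene and probe) on the 8 arrays (columns, grouped by genotype), with a white dot where the probe was well above background. Colours are to be compared along a row; Foxo4 and Gadd45a carry a dot on all 8 arrays, and Foxo1 and Cat carry none.

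The FOXO factors themselves differed in how far they could be measured. Foxo1, the member most often tied to metabolic and lymphoid control, had 2 probes. Its first probe lies on chromosome 3 at 52434190 to 52434249 by the coordinates in the files, which state no genome build, and reads as follows (all in lower case, since no part is singled out).
Foxo1 probe: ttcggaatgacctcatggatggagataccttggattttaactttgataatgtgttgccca
This probe gave processed signals of 1.85 and 1.68 in Nras+/+, of 8.93, 2.48 and 2.45 in NrasG12D/+ and of 2.75, 2.27 and 3.66 in NrasG12D/G12D. The second Foxo1 probe, 3106 bases further along, ranged from 3.55 to 9.07. No array of any genotype placed either Foxo1 probe above background, so an order of the genotypes cannot be read. Foxo3, a factor known for its part in HSC maintenance, had 1 probe with a signal of 12.8 in Nras+/+ replicate 1, above background there alone. The other Nras+/+ array gave 1.74, the NrasG12D/+ arrays 5.96, 4.56 and 8.68, and the NrasG12D/G12D arrays 4.11, 2.63 and 5.36. On the log2 scale these were -3.90 and -6.05 in Nras+/+, with the mutant arrays between -6.08 and -3.88, so the groups overlapped. The second Foxo3 probe ranged from 1.66 to 4.03 without passing background.

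Foxo4, the X-linked member of the family, was the FOXO factor measured on every array. Its log2 level was -2.60 and 0.97 in Nras+/+. It was -2.05, -1.65 and -1.47 in NrasG12D/+. It was -3.41, -2.56 and -3.15 in NrasG12D/G12D. All 3 NrasG12D/G12D arrays lay below all 3 NrasG12D/+ arrays, while the 2 Nras+/+ arrays lay on either side of the NrasG12D/+ group and further apart than any other replicates of this gene. The mean was -3.04 ± 0.44 (SD, n = 3) in NrasG12D/G12D, -1.72 ± 0.30 (SD, n = 3) in NrasG12D/+ and -0.82 ± 2.53 (SD, n = 2) in Nras+/+. The difference between NrasG12D/G12D and NrasG12D/+ was -1.31 (SE 0.92, limma adjusted p = 0.834), and leaving out any 1 array kept it between -1.55 and -1.13. The difference between NrasG12D/G12D and Nras+/+ was -2.22 (SE 1.03, limma adjusted p = 0.722) and came to -0.43 without Nras+/+ replicate 2 and to -4.01 without Nras+/+ replicate 1. For NrasG12D/+ against Nras+/+ it was -0.91 (SE 1.03, limma adjusted p = 0.841), and its sign turned without Nras+/+ replicate 2, to 0.88. The size of both differences from the controls thus rested on 1 control array.

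Of the antioxidant enzymes, Sod2 (manganese superoxide dismutase, which turns superoxide into hydrogen peroxide in mitochondria) showed the widest spread of the tested members, 6.11 log2 units over the 8 arrays against a median of 3.32 for all tested genes. Its processed signal was 10 and 4.44 in Nras+/+. It was 410, 545 and 9 in NrasG12D/+, and 8.12, 6.12 and 22.9 in NrasG12D/G12D. NrasG12D/+ replicates 1 and 2 stood far above all other arrays, whereas NrasG12D/+ replicate 3 lay with the other genotypes and was not above background. On the log2 scale the mean was -0.87 ± 2.59 (SD, n = 3) in NrasG12D/+, -4.48 ± 0.31 (SD, n = 2) in Nras+/+ and -4.23 ± 1.1 (SD, n = 3) in NrasG12D/G12D. The mean of Sod2 in NrasG12D/+, where 2 of 3 arrays were above background, was 9.07-fold above the detection limit in Nras+/+, where none was. This fold compares the mean of the brighter group, over all its arrays at their measured values, with the detection limit of the dimmer one, taken on each array as the dimmest probe above background or the Sod2 probe itself, whichever was higher. NrasG12D/+ replicate 3 was not above background and entered at its measured value, so the fold is not a strict lower bound. The fitted log2 difference was 3.60 (SE 1.38, unadjusted p = 0.029, limma adjusted p = 0.816), with groups that did not overlap. Before scaling, NrasG12D/+ replicate 3 (9) lay below Nras+/+ replicate 1 (10), neither of them above background. Between the mutants it was -3.36 for NrasG12D/G12D minus NrasG12D/+ (SE 1.23, limma adjusted p = 0.803), and 0.25 for NrasG12D/G12D minus Nras+/+ (SE 1.38, limma adjusted p = 0.964), a direction that turned to -0.37 without NrasG12D/G12D replicate 3.

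Within slide 1, which held both Nras+/+ arrays and NrasG12D/+ replicates 1 and 2, the Sod2 difference was 5.08 (SE 0.76, limma adjusted p = 0.355). Within slide 2, which held NrasG12D/+ replicate 3 and the NrasG12D/G12D arrays, it was -0.40 (SE 1.20, limma adjusted p = 0.979) in place of -3.36. The same 2 arrays were also the 2 highest in 673 of 14711 genes with values on all 8 arrays (4.57%), and 19 of the 14711 (0.129%) showed a gap to the next array at least as wide as that of Sod2, 3.21 log2 units, a count made after the values were seen. Summed neutrophil markers were 236 on NrasG12D/+ replicate 1 and 2.65 on replicate 2, and Sod2 was at a log2 level of 0.21 on the first and 1.01 on the second. Summed monocyte and macrophage markers were 1.76 and 1.31 on these 2 arrays. They were 4.48 on NrasG12D/G12D replicate 3, also above background for Sod2, and 0.66 to 0.91 on the other arrays. The part of other cells in the Sod2 values was not tested. Cat (catalase, which breaks down hydrogen peroxide) had signals of 1.70 to 2.96. On 7 of 8 arrays that signal was a surrogate, the value the software puts in for a spot near background, and no array was above background.

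**Figure D2:**
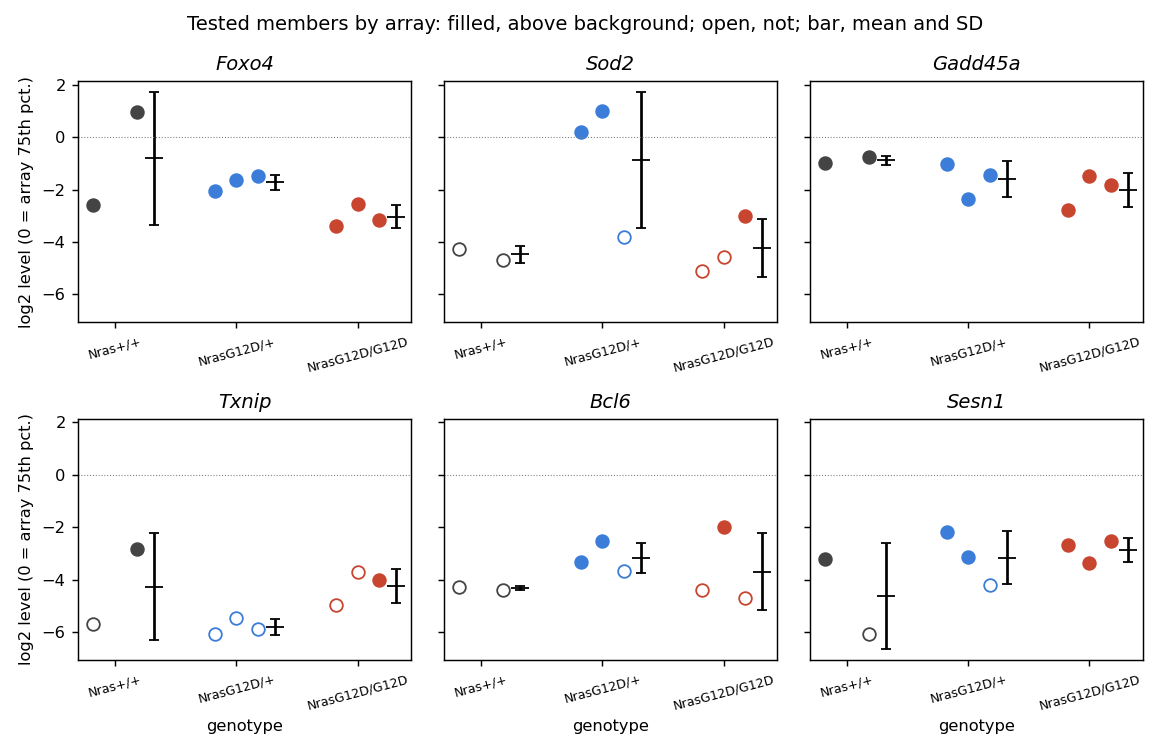
Log2 level (y axis, relative to the array's 75th percentile) of the 6 tested members by genotype (x axis), with 1 point per array, filled where well above background and open where not, and the mean with its SD as a bar to the right of each group. Sod2 is near the 75th percentile on NrasG12D/+ replicates 1 and 2 and at -3.00 or lower elsewhere, and the Foxo4 values of NrasG12D/G12D lie below those of NrasG12D/+.

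The sestrins are stress-induced proteins that restrain mTORC1 signalling and help to restore peroxiredoxins. Sesn1 was covered by 3 probes on chromosome 10, by the coordinates in the files. They are shown because they did not agree on the same arrays: the tested probe (41596609 to 41596668), of which 25 bases are printed with AATAAA, the letters of a polyadenylation signal, in capitals, a second probe 903 bases before it (41595706 to 41595765), and another that spans 4163 bases of genome (41586815 to 41590977) and so crosses an intron.
Sesn1 tested probe, 25 bases: agctccttaaagAATAAAgctggaa
Sesn1 second probe: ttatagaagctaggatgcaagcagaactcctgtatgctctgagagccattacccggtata
Sesn1 further probe: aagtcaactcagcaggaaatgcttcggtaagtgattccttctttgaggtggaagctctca
The tested probe gave log2 levels of -3.21 and -6.06 in Nras+/+. It gave -2.17, -3.13 and -4.21 in NrasG12D/+, and -2.68, -3.37 and -2.51 in NrasG12D/G12D. Nras+/+ replicate 2 was the lowest array and the other control lay among the mutants, so the groups overlapped. The log2 difference from Nras+/+ was 1.47 for NrasG12D/+ (SE 1.01, limma adjusted p = 0.816) and 1.78 for NrasG12D/G12D (SE 1.01, limma adjusted p = 0.722). Without Nras+/+ replicate 2 these came to 0.043 and 0.36, and without Nras+/+ replicate 1 to 2.89 and 3.21.

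The second Sesn1 probe gave another order of arrays. Its processed signals were 55.8 and 2.24 in Nras+/+. They were 13.2, 1.92 and 44.9 in NrasG12D/+, and 24.4, 113 and 2.66 in NrasG12D/G12D. NrasG12D/+ replicate 2 and NrasG12D/G12D replicate 3 were at background by this probe but above it by the tested probe, and NrasG12D/+ replicate 3 was the reverse. Both probes were above background together on 4 arrays, and 1 of them on 3 arrays. By the second probe the log2 differences were -0.74 for NrasG12D/+ minus Nras+/+ and 0.40 for NrasG12D/G12D minus Nras+/+ (SE 2.04 for each), so the first had the opposite sign to that of the tested probe. The further probe, at 2.57 to 7.51, was above background on no array.

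**Figure D3:**
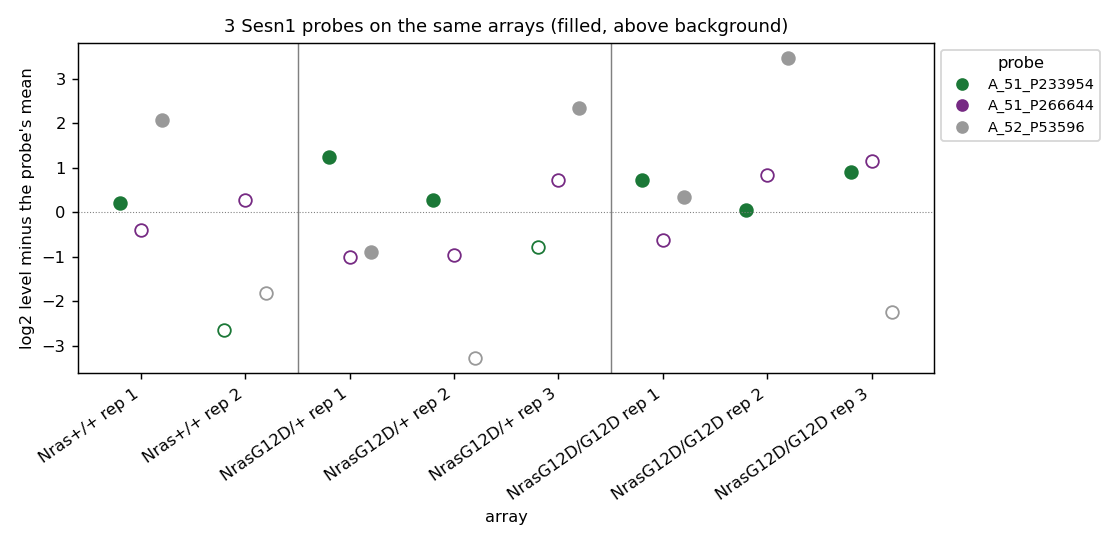
Log2 level of the 3 Sesn1 probes on each array (x axis, grouped by genotype), each probe minus its own mean over the 8 arrays (y axis), filled where well above background. The tested probe and the second probe lie on opposite sides of their means on NrasG12D/+ replicates 1, 2 and 3 and on NrasG12D/G12D replicate 3.

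Sesn3, the sestrin most often named as a FOXO1 and FOXO3 target, was above background on 1 array. A probe to a cDNA clone on chromosome 9 (14069206 to 14069264 by the files) gave 20.8 and 6.34 in Nras+/+ and 1.79 to 2.37 in the 6 mutant arrays, where every signal was a surrogate. Only Nras+/+ replicate 1 passed background, but both control arrays lay above all mutant arrays by at least 1.75 log2 units. Both controls lay above all 6 mutants in 2295 of 40692 probes (5.64%), and by at least that gap in 28 of the 40692 (0.0688%), also counted after the values were seen. The 2 other Sesn3 probes, one of them to the RefSeq transcript, ranged from 2.13 to 6.99 with no array above background and no such split. The clone probe did not meet the filter and was not tested.

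Gadd45a, a growth arrest and DNA damage protein, was above background on every array and varied least of the tested members, with a range of 2.0 log2 units. Its log2 level was -1.0 and -0.76 in Nras+/+. It was -1.03, -2.35 and -1.44 in NrasG12D/+, and -2.76, -1.49 and -1.81 in NrasG12D/G12D. Both controls lay above all 6 mutant arrays, though NrasG12D/+ replicate 1 missed them by only a few hundredths. That order depends on the scaling. Before scaling, the signal of NrasG12D/+ replicate 1 was 174, beside 95.4 and 67.8 in Nras+/+. Divided by the array's median, as in the value table, NrasG12D/+ replicate 1 also lay above both controls. The difference from Nras+/+ was -0.73 for NrasG12D/+ (SE 0.75, limma adjusted p = 0.833) and -1.14 for NrasG12D/G12D (SE 0.75, limma adjusted p = 0.731). It kept its sign without any 1 array, within -1.02 to -0.35 and -1.41 to -0.77. The difference between the mutants was -0.41 (SE 0.67, limma adjusted p = 0.928).

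Txnip binds and inhibits thioredoxin and lowers glucose uptake. Its tested probe spans 175 bases of genome on chromosome 3 (96644567 to 96644741 by the files) and so crosses an intron, and is shown because its second probe stayed at the surrogate value on all 8 arrays.
Txnip tested probe: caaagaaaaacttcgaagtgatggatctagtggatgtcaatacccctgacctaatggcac
It gave processed signals of 3.65 and 16.2 in Nras+/+. It gave 5.28, 6.17 and 2.14 in NrasG12D/+, and 8.86, 11.1 and 11.2 in NrasG12D/G12D. Only Nras+/+ replicate 2 and NrasG12D/G12D replicate 3 were above background, and on the log2 scale all NrasG12D/G12D arrays lay above all NrasG12D/+ arrays. With 1 of 2 Nras+/+, 0 of 3 NrasG12D/+ and 1 of 3 NrasG12D/G12D arrays above background, no fold is given. The fitted log2 difference between the mutants was 1.57 (SE 0.84, limma adjusted p = 0.803). For NrasG12D/+ minus Nras+/+ it was -1.54 (SE 0.94, limma adjusted p = 0.816), which came to -0.10 without Nras+/+ replicate 2. For NrasG12D/G12D it was 0.026 (SE 0.94, limma adjusted p = 0.995), between -1.41 and 1.47 as single arrays were left out.

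Bcl6, a transcriptional repressor of lymphoid cells that FOXO factors are known to activate, had processed signals of 9.84 and 5.51 in Nras+/+. They were 35.1, 46.8 and 10.1 in NrasG12D/+, and 13.2, 36.7 and 7.05 in NrasG12D/G12D. As for Sod2, NrasG12D/+ replicates 1 and 2 were above background and replicate 3 was not, and NrasG12D/G12D replicate 2 was the one other array above background. On the log2 scale the 3 NrasG12D/+ arrays lay above both controls, though replicate 3 and the controls were not above background. The NrasG12D/+ mean was 1.85-fold above the controls' detection limit (fitted log2 difference 1.15, SE 0.93, limma adjusted p = 0.818). Replicate 3 entered that mean at its measured value, so the fold is not a strict lower bound. With normexp background correction, computed from the uncorrected spot signals, that difference was -0.12. Normexp was run with an added offset of 50, above every processed Bcl6 signal, which compresses differences among dim signals. For NrasG12D/G12D against Nras+/+, with 1 of 3 and 0 of 2 arrays above background, the fitted log2 difference was 0.63 (SE 0.93, limma adjusted p = 0.854), and the sign turned to -0.22 without NrasG12D/G12D replicate 2. That array also had the summed HSC marker level of 47.0, whose part in the Bcl6, Crebbp, Cdkn1b and Prdx5 values was not tested.

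Set side by side, no member passed the threshold of 0.05 on the Benjamini-Hochberg adjusted limma p in any comparison. For NrasG12D/+ against Nras+/+, 0 of 6 tested members and 0 of 14966 tested genes (0%) passed, and at an unadjusted p under 0.05 there were 1 member (Sod2) and 713 genes (4.76%). The 2 groups did not overlap for 3 members, beside 25% of all tested genes. These were Sod2 and Bcl6, higher in NrasG12D/+ (8.96% of all genes), and Gadd45a, lower (16% of all genes). For Sod2 and Bcl6, NrasG12D/+ replicate 3 and both controls were not above background, so their order was read near the detection limit. Without scaling of the arrays, the groups overlapped for Sod2 and Gadd45a. The members split into 3 above 0, beside 42% of all genes, and 3 below, with a median log2 difference of 0.21 beside -0.25 for all genes. Within slide 1 the 5 members other than Sod2 kept their signs, at -1.03 for Foxo4, -0.81 for Gadd45a, -1.49 for Txnip, 1.40 for Bcl6 and 1.99 for Sesn1. These differences use the same arrays without NrasG12D/+ replicate 3 and are not a separate check.

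For NrasG12D/G12D against Nras+/+, 0 of 6 members and 0 of 14966 genes (0%) passed by limma, with 0 members and 978 genes (6.53%) at an unadjusted p under 0.05. Gadd45a was the 1 member whose groups did not overlap, lower in NrasG12D/G12D, beside 28.8% of all genes (22.8% lower and 6.04% higher). Sesn1, Bcl6, Sod2 and Txnip had differences above 0 and Foxo4 and Gadd45a below (35.6% of all genes were above 0), with a median of 0.14 beside -0.44 for all genes. No slide held both genotypes, so no within-slide value exists. A fit with the slide as a block, which rests on the NrasG12D/+ arrays, gave Sod2 4.69 (SE 1.39) in place of 0.25, Sesn1 3.34 in place of 1.78 and Bcl6 1.36 in place of 0.63. It gave Foxo4 -2.60 in place of -2.22, Gadd45a -1.39 in place of -1.14 and Txnip 0.17 in place of 0.026. On slide 2 that fit has NrasG12D/+ replicate 3 alone to link the genotypes.

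Between the mutants, 0 of 6 members and 0 of 14966 genes (0%) passed by limma, with 1 member (Sod2) and 890 genes (5.95%) at an unadjusted p under 0.05. The groups did not overlap for Foxo4, lower in NrasG12D/G12D, and Txnip, higher there, beside 11.5% of all genes (8.71% lower and 2.79% higher). Txnip was above background on only 1 of these arrays, in NrasG12D/G12D. Sesn1 and Txnip had differences above 0, as did 42.1% of all genes. The median of the members was -0.47 beside -0.20 for all genes. Within slide 2, Foxo4 gave -1.56, Txnip 1.66, Gadd45a -0.58, Bcl6 -0.034 and Sesn1 1.35. The comparisons share arrays, so a member's 3 differences are not separate measurements: with NrasG12D/+ minus Nras+/+ first, then NrasG12D/G12D minus Nras+/+ and then the difference between the mutants, Foxo4 gave -0.91, -2.22 and -1.31. In the same order Sod2 gave 3.60, 0.25 and -3.36. The standard errors of the members ranged from 0.67 to 1.38.

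The zero of these differences depends on the scaling of the arrays. Over the scaling used and 4 others, the median difference of all genes ranged from -0.25 to 0.024, from -0.44 to 0.19 and from -0.20 to 0.25 in the 3 comparisons. Relative to it, the median of the members was 0.43 to 0.47 and 0.58 to 0.80 higher in NrasG12D/+ and NrasG12D/G12D than in Nras+/+, and between the mutants it was -0.27 to -0.21. Except for quantile normalization, these scalings subtract a constant from each array, so this relative median was nearly fixed in advance. Other settings could change it. In the first comparison the members' median was -0.38 beside -0.44 for all genes with no filter, and -0.30 beside -0.38 with normexp. With probes above background on all 8 arrays, which leaves 2 members, it was -0.82 beside -0.38. The count of members above 0 stayed at 3 and 4 in the first and the second comparison, and in the third it went from 2 to 3 with the deposited value table, where Gadd45a came to 0.035.

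**Figure D4:**
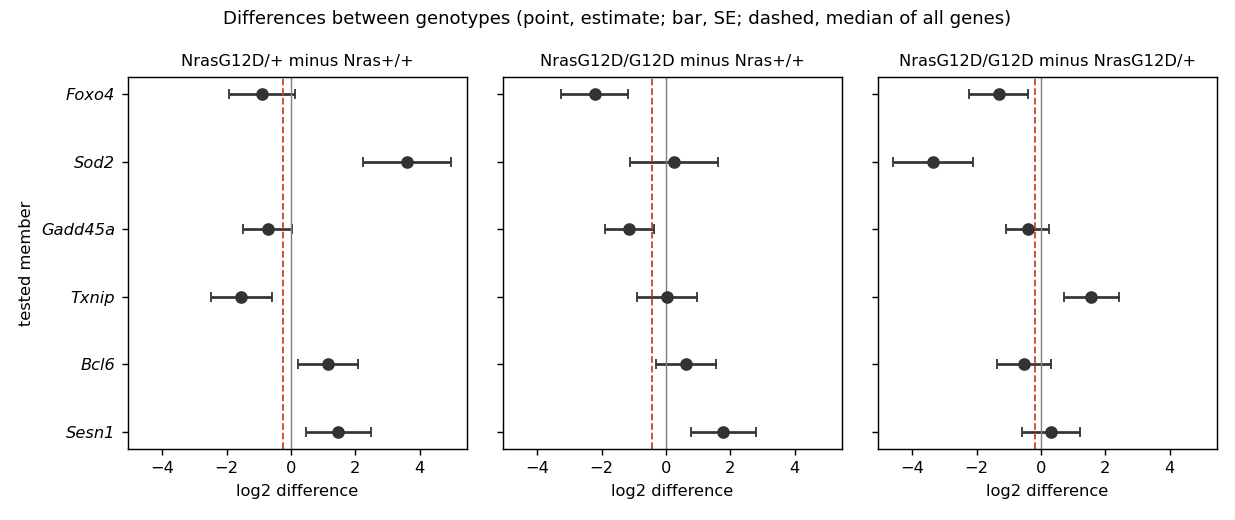
Log2 difference (x axis) of the 6 tested members (rows) in the 3 comparisons (panels), as the limma estimate with its SE, with a dashed line at the median of all tested genes. The Sod2 estimates lie farthest from 0 in the first and the third panel, at 3.60 and -3.36, and no estimate passed the adjusted threshold.

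The other genes of the pathway were read from 3 lists. Of 25 regulators of FOXO proteins (PI3K and AKT subunits and isoforms, kinases, acetylases and methylases), 15 were tested and none passed in any comparison. In NrasG12D/+ against Nras+/+, 3 were higher and 12 lower (median -0.13), in NrasG12D/G12D against Nras+/+ 8 and 7 (median 0.018), and between the mutants 9 and 6 (median 0.30). Beside these, 42%, 35.6% and 42.1% of all tested genes were higher. Under the other scalings, which also move the zero for all genes, the counts of regulators higher ran from 6 to 8, from 10 to 11 and from 9 to 13. The excess of lower regulators in NrasG12D/+ thus turned in each of these scalings but quantile normalization. Pik3cb, a catalytic PI3K subunit, was the regulator with the lowest p in the first comparison, with a difference of -1.94 (SE 0.74, limma adjusted p = 0.816) and no overlap between groups, and gave -1.32 in NrasG12D/G12D. In the first comparison 16% of all tested genes were lower without overlap. Akt2, an AKT isoform, differed most between the mutants, by 2.91 (SE 1.15, limma adjusted p = 0.803). Its NrasG12D/G12D arrays split, with log2 levels of -0.38, -4.23 and -0.030 beside -4.09, -4.84 and -4.44 in NrasG12D/+. Of the other regulators with the lowest p, Pdpk1 (the kinase that activates AKT) gave -1.30 in NrasG12D/+ and -0.74 in NrasG12D/G12D, the latter between -1.16 and -0.31 as single arrays were left out. Sgk1, a kinase related to AKT, was above background on 1 array of each genotype, and Prmt1, an arginine methyltransferase, on 5 of 8 arrays. Prmt1 gave 1.41 in NrasG12D/G12D against Nras+/+ and 0.94 between the mutants, and 0.30 without Nras+/+ replicate 2 and 0.25 without NrasG12D/+ replicate 3. Crebbp, an acetyltransferase, gave 1.44 between the mutants and -0.041 without NrasG12D/G12D replicate 2, whose signal was 807 beside 24.1 to 80.4 elsewhere. Pik3r1, the regulatory PI3K subunit, gave 1.24 and came to 0.045 without NrasG12D/G12D replicate 3, whose signal was 221 beside 16.4 to 34.6 elsewhere.

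Of 27 other FOXO targets, 26 were on the array and 16 were tested, and none passed. Against Nras+/+, 11 were higher and 5 lower in NrasG12D/+ (median 0.71), and likewise 11 and 5 in NrasG12D/G12D (median 0.80). Between the mutants the counts were 12 and 4 (median 0.34). More targets were higher than lower under each scaling run, with 10 to 11, 11 to 14 and 12 to 14 of 16 higher in the 3 comparisons. Cdkn1b, the cell cycle inhibitor p27, had the lowest p against the controls, with log2 levels of -0.29 and -1.11 in Nras+/+, of 1.62, 4.05 and 4.09 in NrasG12D/+ and of 4.05, 7.09 and -0.17 in NrasG12D/G12D. All mutant arrays lay above both controls, NrasG12D/G12D replicate 3 by little. Higher without overlap against the controls were 8.96% of all tested genes in NrasG12D/+ and 6.04% in NrasG12D/G12D. The Cdkn1b differences were 3.96 (SE 1.82, limma adjusted p = 0.816) and 4.36 (SE 1.82, unadjusted p = 0.041, limma adjusted p = 0.722), the second being 2.64 without NrasG12D/G12D replicate 2. Gadd45b, a relative of Gadd45a, was above background on NrasG12D/+ replicates 1 and 2 and NrasG12D/G12D replicate 3, with signals of 55.5, 17.7 and 181, and on no control array. Insr (the insulin receptor) passed background on 1 array of each mutant and on no control. Ddit4 (an inhibitor of mTORC1) passed it on 2 arrays, as did Gabarapl1 (an autophagy protein), so no difference is read for these genes. Il7r (a cytokine receptor of lymphoid progenitors), above background on all 8 arrays, gave -0.92 and -1.19 in the 2 mutants. Between the mutants, Fasl (a death ligand) gave 1.54 (0.94 to 2.31 as single arrays were left out), Bcl2l11 (the pro-apoptotic protein Bim) 1.07 (0.042 without NrasG12D/G12D replicate 1, and up to 2.16) and Klf2 0.71 (0.36 to 1.27).

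Of 28 other antioxidant genes, 21 were tested and none passed. The counts were 10 higher and 11 lower in NrasG12D/+ (median -0.21), 8 and 13 in NrasG12D/G12D (median -0.26) and 8 and 13 between the mutants (median -0.47). The shares of all tested genes that were higher were 42%, 35.6% and 42.1%. Under the other scalings, which also move the zero for all genes, 9 to 12, 11 to 12 and 8 to 10 of the antioxidant genes were higher. In the second comparison more of them were then higher than lower. Gstp1, a glutathione transferase with a near-identical neighbour (Gstp2) that a probe may not tell apart, had the lowest p of all list genes, with log2 levels of -0.18 and 0.99 in Nras+/+, of -2.22, -0.45 and -1.12 in NrasG12D/+ and of -2.21, -2.91 and -3.58 in NrasG12D/G12D. Both controls were above all mutant arrays, and the difference was -1.67 in NrasG12D/+ (SE 0.84, limma adjusted p = 0.816) and -3.31 in NrasG12D/G12D (SE 0.84, unadjusted p = 0.0034, limma adjusted p = 0.715). Such an order, lower in the mutant without overlap, was seen in 16% and 22.8% of all tested genes in these comparisons. Txn2, the mitochondrial thioredoxin, gave -3.53 in NrasG12D/+ (SE 1.44, limma adjusted p = 0.816) and -3.11 in NrasG12D/G12D (SE 1.44, limma adjusted p = 0.722). The NrasG12D/+ group overlapped the controls, with replicate 3 at a log2 level of -0.328, above Nras+/+ replicate 1 at -0.501. Its signals were 9.44 and 16.9 on replicates 1 and 2 beside 102 on replicate 3. The NrasG12D/G12D arrays lay below both controls. NrasG12D/+ replicate 1 and NrasG12D/G12D replicate 3 were not above background. Gsr (glutathione reductase) was above background on Nras+/+ replicate 1 and NrasG12D/+ replicate 2 alone. Txnrd1 (thioredoxin reductase) was above background on NrasG12D/+ replicates 1 and 2 alone, the same arrays on which Sod2 was high, with signals of 17 and 51.9 there and of 1.88 to 2.60 elsewhere. The peroxiredoxins Prdx2 and Prdx5 gave 1.49 and 1.85 between the mutants (1.04 for Prdx5 without NrasG12D/G12D replicate 2), Prdx2 also 1.51 in NrasG12D/G12D against Nras+/+, and Gpx3 (a secreted glutathione peroxidase) -1.39 in NrasG12D/+.

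**Figure D5:**
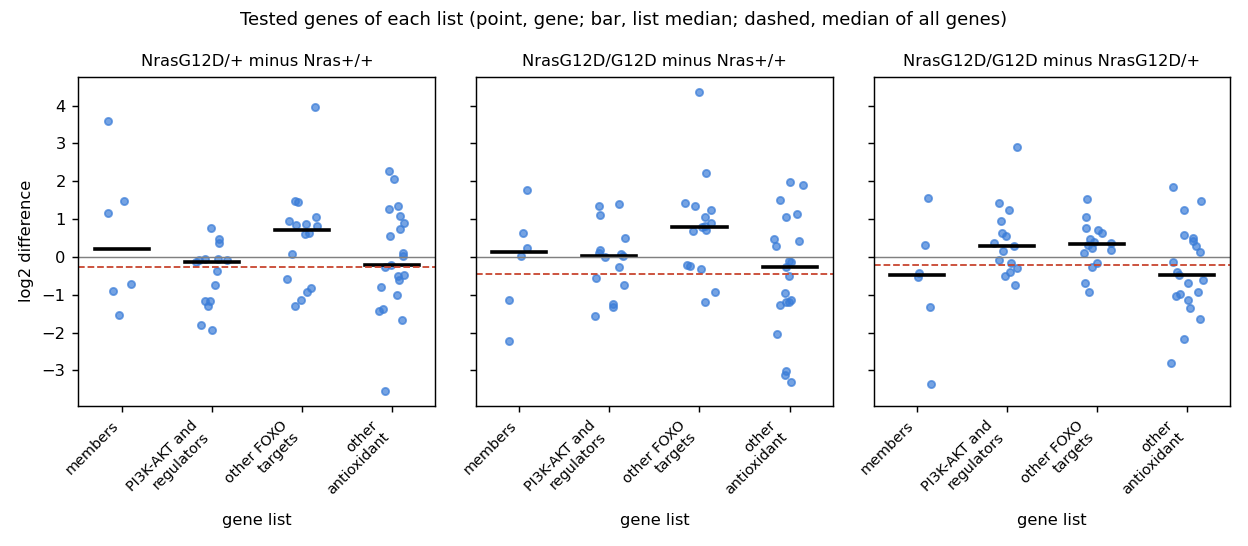
Log2 difference (y axis) of the tested genes (points) of the FOXO set and of the 3 pathway lists (x axis) in the 3 comparisons (panels), with the list's median as a bar and the median of all tested genes as a dashed line. The medians of the other FOXO targets, 0.71 and 0.80 against Nras+/+, lie above the dashed line, and points of each list lie on both sides of 0.

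Foxo4 and Gadd45a, measured above background on all arrays, allowed a search for genes of like pattern, by the root mean square difference of log2 level over the 8 arrays after centring each gene. For Foxo4 the closest of 5646 genes were Clpb, a mitochondrial chaperone (0.44), and a variable segment of the immunoglobulin heavy chain (0.48), where the median over genes was 1.45. For Gadd45a they were Nr3c1, the glucocorticoid receptor (0.23), and Pitx3, a homeobox factor (0.24), where the median was 1.04. These are descriptions over 8 arrays that share 2 slides.

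The forkhead element GTAAACA was searched on both strands (TGTTTAC on the other) in RefSeq promoter windows of 300 bases (GRCm38.p6, 250 before and 50 after a start), of which 9 of the 10 members have at least 1 and which number 11 for them. It stood in 2 of these, beside 3.65% of all 32851 windows. The matches lie in Txnip, 121 bases before the start at chr3:96557826-96557852, and in Sesn1, 22 bases after the start at chr10:41810586-41810612, and are shown with the element in capitals on the plus strand.
Txnip promoter: tggaggcctgGTAAACAagggccaagt
Sesn1 promoter: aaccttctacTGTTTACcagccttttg
The related insulin response element CAAAACA shares the run AAACA with the forkhead element, though one site cannot be both. Read on both strands, it stood in none of the 11 and in 6.28% of all windows. A match describes letters only. Of the 2 genes that held one, Txnip, above background on 2 arrays, had its lowest mean in NrasG12D/+, as did the second Sesn1 probe (-4.47). The tested Sesn1 probe had its lowest mean in Nras+/+, where 1 of 2 arrays was above background. Any link of the element to these levels was not tested.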

How the data were processed

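Per the labels' protocols, RNA came from a Qiagen extraction and carried Cy3. The deposited processed signals are intensities from Agilent Feature Extraction 10.5.1.1, per the file headers, corrected for background and detrended by array, with no scaling between arrays. The deposited mean signals and local backgrounds are uncorrected intensities, used for the normexp alternative, which added an offset of 50 to the corrected signals. The authors' value table holds a ratio: against the scanner files each column is the processed signal over the array's median, on a linear scale, with a column median of 1.0 (largest relative deviation 1.7e-06). No spot was saturated, and outlier-flagged spots (120 to 464 per array) were left out.

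Log2 signals were averaged per probe and the array's 75th percentile was subtracted, taken over the 6576 probes that passed background everywhere. Genes were tested with limma 3.58.1 in R 4.3.3 (lmFit, eBayes, two-sided, all 8 arrays in 1 fit, Benjamini-Hochberg over all genes). Probes had to be above background on at least 2 arrays, with at least 2 values per group. The brightest probe of each gene among those that passed was used (14966 genes, of which 5849 on all 8). That filter passed 6 of the 10 members. The fit was also run on simulated data with added differences larger than most of those reported here. That run does not tell how well smaller differences are found. The number of arrays limits the precision, with a median SE of 0.96, 0.96 and 0.86 in the 3 comparisons.

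Members, lists and tests were chosen with earlier results of these data known. Genes named were all members, from each pathway list the 4 tested genes of lowest unadjusted p per comparison where none passed, the 2 genes most like each member above background on all arrays, and Nras. Alternatives were other scalings, quantile normalization, normexp, the value table, other filters, every probe by itself, array weights, the slide, only the groups compared, a replicate block and leaving out each array. Same-numbered replicates did not deviate together (correlations of -0.09 to 0.07 over 7 pairs), so the numbers were not taken as pairs.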

Additional observations from a re-analysis of the deposited data

How the results depend on the processing

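The count of members past the threshold was 0 in each comparison under every alternative run. The count of genes past it was 0 in each comparison and changed as follows. For NrasG12D/+ against Nras+/+ it was 1 with the percentile over all probes, array weights, the value table, no filter and quantile normalization. For NrasG12D/G12D against Nras+/+ it was 1 with array weights, no filter, only the groups compared, quantile normalization and the slide as a block. Between the mutants it was 4 with the slide as a block. Leaving out 1 array gave 0 to 10, 0 to 9 and 0 to 2 genes in these comparisons, the highest in the first and the second without Nras+/+ replicate 2, and in the third without NrasG12D/+ replicate 2. The members' median moved to -0.82 and -1.68 in the first and the second comparison with probes above background on all 8 arrays, which leaves 2 members. In the first it was also below 0 with normexp (-0.30) and with no filter (-0.38, 10 members). In the second it was 0.63 with the percentile over all probes, 0.77 with the value table, 0.67 with quantile normalization, 0.76 with the slide as a block and -0.30 with no filter, and leaving out 1 array gave -0.39 to 0.54, with a range of 0.11 to 0.46 in the first and -1.02 to -0.11 in the third. Of 216 values of single members under settings other than leaving out an array, 7 turned in sign. With normexp these were Bcl6 (-0.12) and Sesn1 (-0.028) in the first comparison and Sod2 (-0.26), Txnip (-0.16) and Bcl6 (-0.12) in the second. The others were Gadd45a between the mutants (0.035, value table) and Txnip in the second (-0.0042, replicate block). Part of the 216 values could not turn, since settings such as every probe by itself or only the groups compared leave the difference as it is. With normexp, Insr was -0.37 and -0.071 in the first and second comparison and Txnrd1 -0.074 in the first. The normexp offset of 50 compresses differences among dim signals, so these signs are of little weight for dim probes. Leaving out 1 array turned 7 of 144 values of members: Foxo4 in the first comparison (range over the arrays left out -2.70 to 0.88), Sod2 (-0.37 to 0.68), Txnip (-1.41 to 1.47, by 3 arrays) and Bcl6 (-0.22 to 1.13) in the second, and Sesn1 between the mutants (-0.20 to 0.81). It also turned Crebbp between the mutants (-0.041 to 2.21). Leaving out an array of the genotype outside a comparison cannot change that comparison's difference, so part of the 144 values was fixed in advance. The replicate block changed no other call. The cause of these changes was not tested, except that fewer genes or arrays entered by construction. Signal over background is a limit: 4 members could not be tested, and Sod2, Bcl6 and Txnip have only bounds in at least 1 group.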
